A study of Mus musculus with 14 samples.

Results

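Sarcomere and Z-disc genes are described here in whole hearts of female FS6KD mice with and without Atf3. The set holds 34 named genes, all found in both count tables among 42396 listed genes, and 33 of them passed a filter of more than 1 CPM (counts scaled to a common library size) in at least 1 library. FS6KD mice (Ndufs6gt/gt) carry little Ndufs6, a subunit of complex I of the respiratory chain, and are a model of mitochondrial cardiomyopathy; Ndufs6 stood at 2.34 to 3.79 CPM in all libraries. All 14 libraries carry this defect and no wild-type heart was compared. In the knockout experiment, 4 Atf3+/+FS6KD hearts were compared with 4 Atf3-/-FS6KD hearts taken at 12 weeks. The deletion was made by CRISPR-Cas9 in fertilized eggs of Ndufs6gt/gt mice on a mixed C57BL/6J and 129/Ola background, and founders were then intercrossed. In the AAV experiment, 3 FS6KD hearts labelled MyoAAV2-shCtrl were compared with 3 labelled MyoAAV2-shAtf3, which received a muscle-directed virus with a short hairpin RNA as newborns and were taken 12 weeks later. The promoter of the hairpin is not given in the sources used here. Both experiments ask whether loss of Atf3, a stress-induced transcription factor of the bZIP class, alters the failing heart.

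Atf3 itself was read first as a check of the labels. Atf3+/+FS6KD hearts had 11.5 ± 9.53 CPM (SD, n = 4), Atf3-/-FS6KD hearts 25.1 ± 9.64 CPM (SD, n = 4). Replicates 1 to 4 had 25.8, 6.89, 6.91 and 6.36 CPM in Atf3+/+FS6KD and 25.6, 37.6, 22.7 and 14.3 CPM in Atf3-/-FS6KD. Atf3+/+FS6KD replicate 1 thus lay within the range of the Atf3-/-FS6KD hearts. Libraries labelled shCtrl had 12.5 ± 2.13 CPM (SD, n = 3), and those labelled shAtf3 16.6 ± 4.52 CPM (SD, n = 3). The gene was thus not lower in the libraries in which it should be lost, and a count over the whole gene cannot show a deletion of some exons. The column names of the AAV table also read the opposite way to the labels. Directions follow the labels, and those of an experiment would turn if its labels were crossed. Values that combine both experiments would then change in size as well. Depth was 33914931 to 42409691 counts in replicates 1 and 2 and 112904389 to 134920825 counts in replicates 3 and 4 of the knockout experiment, and 30085432 to 40534913 counts in the AAV experiment.

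The sarcomere is the contractile unit of striated muscle. Thin filaments of actin, tropomyosin and the troponin complex slide along thick filaments of myosin, and titin spans from the Z-disc, where thin filaments are anchored by alpha-actinin, to the M-band, where thick filaments are held together. Desmin ties Z-discs of neighbouring myofibrils together, and inherited variants in many of these genes are known causes of cardiomyopathy. The defining genes of heart muscle were present in every library, Tnni3 with at least 3329 CPM, Tnnt2 with at least 5133 CPM and the ventricular Myl2 with at least 7128 CPM. Together the 34 genes took 5.83% to 7.40% of all counts in a library.

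Tnnt2, which encodes cardiac troponin T, lies on chromosome 1, the chromosome of Atf3. It spans chr1:135836354-135852260 on the plus strand (GRCm38), and its start is 55.4 Mb from that of Atf3. Tnni1, Des and Fhl2 lie on the same chromosome, 55.4, 115.9 and 148.0 Mb from Atf3. Because Atf3 binds CRE and AP-1 sites, the 250 bases upstream of each listed start were searched on both strands for TGACGTCA (CRE) and TGANTCA (AP-1), and for elements known from muscle promoters. Of the 34 genes, 30 have an entry in the RefSeq promoter table (GRCm38.p6), with 44 starts, and the table holds 32851 starts of 27025 genes. A gene was counted where any of its starts held the motif. The 30 genes had more starts per gene than the whole table and so more windows in which to hold any motif. The CRE was found in 1 of 30, Pdlim3, against 1.77% of 27025 genes, and the AP-1 site in 1 of 30, Ldb3, against 7.82%. The M-CAT element (CATTCC) was found in 9 of 30, or 30%, against 14.4%, the GATA site (AGATAA) in 23.3% against 11.4% and the TATA box (TATAAA) in 16.7% against 14.3%. The CArG box was found in 20% against 1.62%, and the MEF2 site, which can overlap a TATA box, in 16.7% against 3.42%. The upstream sequences of the 3 genes whose Atf3-/-FS6KD and Atf3+/+FS6KD hearts did not overlap (Tnnt2, Des and Actn2), and of the 2 with a CRE or AP-1 site, are given 5′ to 3′ for 1 start a gene. The other listed window of Tnnt2 held none of these motifs, and that of Ldb3 overlaps the one shown. Capitals mark any of these motifs, which are an M-CAT element and a GATA site in Tnnt2, an AP-1 site and a CArG box in Ldb3, a CRE and a pair of M-CAT elements in Pdlim3, and none in Des or Actn2.
Tnnt2, chr1:135836084-135836333, plus strand: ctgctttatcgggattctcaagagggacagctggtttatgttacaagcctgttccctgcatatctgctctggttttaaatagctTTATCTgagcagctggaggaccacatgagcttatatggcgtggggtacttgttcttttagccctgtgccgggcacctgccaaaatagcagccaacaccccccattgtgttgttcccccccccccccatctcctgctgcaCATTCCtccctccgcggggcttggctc
Des, chr1:75360042-75360291, plus strand: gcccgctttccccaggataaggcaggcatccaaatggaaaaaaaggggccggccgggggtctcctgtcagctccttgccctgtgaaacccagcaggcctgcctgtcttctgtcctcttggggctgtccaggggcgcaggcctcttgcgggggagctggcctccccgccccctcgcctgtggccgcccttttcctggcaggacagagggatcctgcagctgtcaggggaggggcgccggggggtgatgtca
Actn2, chr13:12340733-12340982, minus strand: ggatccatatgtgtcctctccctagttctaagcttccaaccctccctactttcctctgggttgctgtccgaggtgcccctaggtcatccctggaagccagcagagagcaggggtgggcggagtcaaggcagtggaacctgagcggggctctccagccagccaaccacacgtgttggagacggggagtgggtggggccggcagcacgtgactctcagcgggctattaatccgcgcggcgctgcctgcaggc
Ldb3, chr14:34588682-34588931, minus strand: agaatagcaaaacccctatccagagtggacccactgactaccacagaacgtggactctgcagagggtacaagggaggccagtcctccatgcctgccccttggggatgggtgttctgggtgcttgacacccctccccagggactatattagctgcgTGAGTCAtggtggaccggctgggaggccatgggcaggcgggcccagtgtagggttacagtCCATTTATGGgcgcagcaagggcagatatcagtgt
Pdlim3, chr8:45885237-45885486, plus strand: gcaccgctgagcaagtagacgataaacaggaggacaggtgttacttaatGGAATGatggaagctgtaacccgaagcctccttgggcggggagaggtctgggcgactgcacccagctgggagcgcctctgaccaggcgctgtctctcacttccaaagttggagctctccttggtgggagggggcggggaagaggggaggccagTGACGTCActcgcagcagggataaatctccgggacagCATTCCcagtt
A match describes the letters in this window and is not a measured binding site.

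Levels were compared between genes only per length, as normalised CPM per kb of the union of annotated exons. In Atf3+/+FS6KD hearts, the ventricular light chain Myl2 led with 4855 ± 687 CPM per kb (SD, n = 4, as for all levels in this paragraph), followed by the essential light chain Myl3 with 3223 ± 132. Next stood troponin C (Tnnc1) with 2481 ± 149 and cardiac troponin I (Tnni3) with 1907 ± 155. Alpha-tropomyosin (Tpm1, 1574 ± 360), the titin cap (Tcap, 1441 ± 365) and myosin-binding protein C (Mybpc3, 1312 ± 110.0) lay within their spread of each other. So did Tnnt2 (999 ± 57.8) and Fhl2 (981 ± 109), and likewise Des (543 ± 28.8) and alpha-actinin 2 (Actn2, 529.6 ± 23.2). Titin (Ttn) took place 26 of 34 per length, with 43.8 ± 3.54 CPM per kb over 116.8 kb of exon. At the low end stood Myot (16.3 ± 7.46), Myh7b (5.85 ± 0.732), Pdlim3 (2.08 ± 0.23) and the slow skeletal troponin I Tnni1 (0.0746 ± 0.0266). Tnni1 had 0 to 0.359 CPM in any library and did not pass the filter, far under Tnni3. Levels depend on the length used: over the longest GENCODE transcript with a RefSeq match (1.2 kb in place of 7.75 kb), Tnnt2 stood at 6454 CPM per kb and took place 3 in place of 8, and Tnni3 (4314) stood above Tnnc1 (3582), while Myl2 and Myl3 kept the top places.

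**Figure D1:**
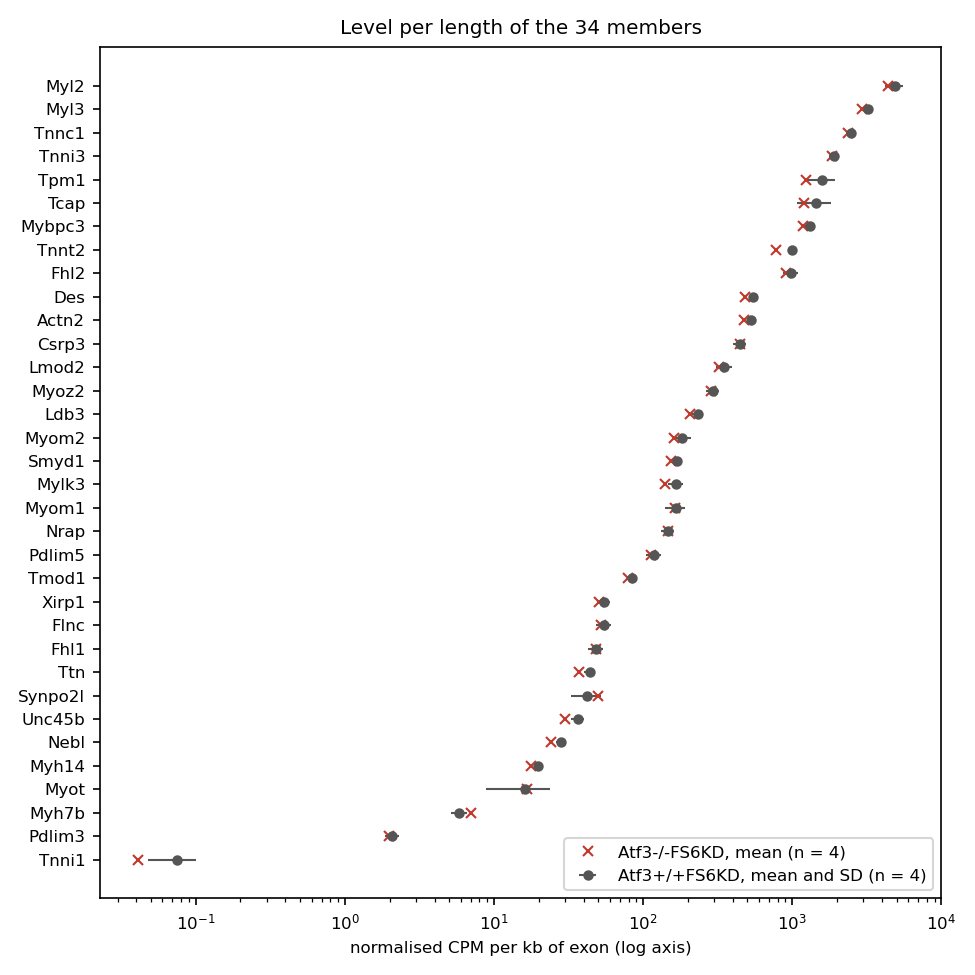
Level of each of the 34 genes in normalised CPM per kb of exon, on a log axis. Grey points and bars give the mean and SD of 4 Atf3+/+FS6KD hearts and red crosses the mean of 4 Atf3-/-FS6KD hearts; Myl2 is highest and Tnni1 lowest, and red crosses lie left of the grey points for most genes.

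In the knockout comparison, 28 of the 33 tested genes had a log2 fold change below 0, against 49.8% of all 15592 tested genes. Their median log2 fold change was -0.12, against 0.0005 over all genes. With libraries scaled to cardiomyocyte markers, described further on, 15 of the 33 were below 0. Their median was then 0.01, against 0.13 over all genes on the same scale. None of the 33 passed the test (edgeR quasi-likelihood, adjusted p below 0.05), and neither did any other gene (0%). The smallest adjusted p among them was 0.277, for Tnnt2. At an unadjusted p below 0.05 there were 8, all lower (background 4.69% lower and 5.41% higher). The groups did not overlap in 3, all lower, against 2.63% of all genes lower and 3.08% higher. Limma-trend also called 0 at the adjusted threshold (0% of all genes), and DESeq2 called 1, Tnnt2, with an adjusted p of 0.0100, against 1.34% of all genes (208). Within replicates 1 and 2 and within replicates 3 and 4, the depth batches, the median was -0.14 and -0.16.

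Among the 6 tested members of the thin filament, Tnnt2 had the largest difference. Replicates 1 to 4 of the Atf3+/+FS6KD hearts had 8172, 8092, 7344 and 7371 CPM, and those of the Atf3-/-FS6KD hearts had 6052, 6321, 5133 and 6593 CPM. All 4 Atf3-/-FS6KD libraries lay below all 4 Atf3+/+FS6KD libraries. The mean was 77.8% of that in Atf3+/+FS6KD, and the log2 fold change was -0.36 ± 0.08 (SE, unadjusted p = 0.00154, adjusted p = 0.277, edgeR). It was -0.39 within replicates 1 and 2 and -0.33 within replicates 3 and 4. Tpm1, whose protein lies along actin and carries the troponin complex, had a log2 fold change of -0.34 ± 0.15 (SE), but Atf3+/+FS6KD replicate 2 stood apart at 13672 CPM while the other 3 had 8706 to 9491 CPM. Without that library Tpm1 was at -0.17, whereas Tnnt2 stayed between -0.41 and -0.29 with any 1 library left out. The inhibitory and calcium-binding troponins did not follow Tnnt2 in size: Tnni3 was at -0.05 ± 0.07 and Tnnc1 at -0.06 ± 0.07 on the log2 scale. Tnni3 had 4057, 4266, 3509 and 3906 CPM in the Atf3+/+FS6KD hearts and 3804, 3740.2, 3534 and 4119 CPM in the Atf3-/-FS6KD hearts, and the groups overlapped. The leiomodin and tropomodulin that cap or extend the pointed end, Lmod2 and Tmod1, were at -0.12 and -0.08 and overlapped as well.

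Because Tnnt2 shares a chromosome with the deleted gene, its neighbours were read in the same fit. Of 20 other tested genes that start within 1 Mb of Tnnt2, 5 had an unadjusted p below 0.05, 3 higher and 2 lower, or 25%, against 9.92% of 12120 tested genes on other chromosomes. The 2 lower ones, named after their values were seen, were Ppp1r12b, a regulatory subunit of myosin phosphatase, with a log2 fold change of -0.27, and Lgr6 with -1.48, and in both the groups did not overlap. The 3 higher ones were Csrp1 (0.32, groups not overlapping), which starts 0.116 Mb from Tnnt2 and thus nearer than either, Lad1 (0.68) and Ddx59 (0.30). Along the chromosome this share was 18.9% of 148 genes within 20 Mb of Atf3, 33.6% of 116 genes from 20 to 40 Mb and 17.0% of 88 genes from 40 to 60 Mb, where Tnnt2 lies. It was 12.9% from 100 to 120 Mb, where Des lies, and 6.94% of 72 genes from 140 to 160 Mb, where Fhl2 lies. The deletion and any alleles of the mixed background inherited with it cannot be told apart in this design.

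**Figure D2:**
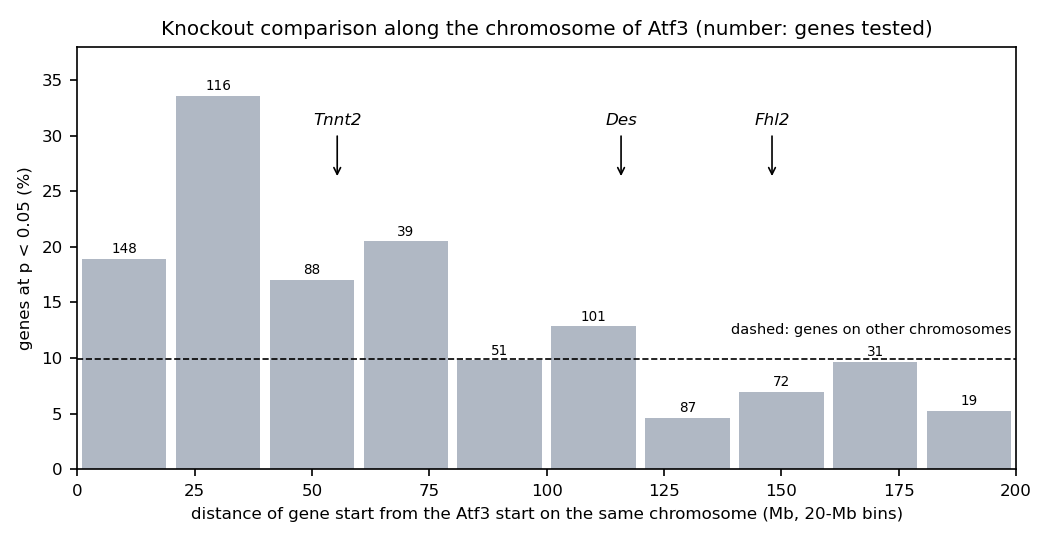
Share of tested genes with an unadjusted p below 0.05 in the knockout comparison (y axis, %) by the distance of their start from that of Atf3 on the same chromosome (x axis, Mb, bins of 20 Mb). The number over a bar is the genes tested, the dashed line is the 9.92% of other chromosomes, and arrows mark Tnnt2, Des and Fhl2; the bar from 20 to 40 Mb is the tallest at 33.6%.

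Genes of the thick filament leaned the same way without passing the test. Of 6, 5 were below 0 with a median of -0.15. The kinase of the ventricular light chain, Mylk3, had 738, 808, 606 and 705 CPM in the Atf3+/+FS6KD hearts and 629, 613, 540 and 633 CPM in the Atf3-/-FS6KD hearts. Only Atf3+/+FS6KD replicate 3 fell within the range of the other group. The log2 fold change of Mylk3 was -0.24 ± 0.09 (SE, unadjusted p = 0.0268, adjusted p = 0.436, edgeR). Its substrate Myl2 overlapped widely, with 10529, 10666, 7968 and 8709 CPM in the Atf3+/+FS6KD hearts and 9213, 8823, 7128 and 9071 CPM in the Atf3-/-FS6KD hearts. Myl2 was at -0.15 ± 0.11 (SE, adjusted p = 0.687, edgeR). Myl3 was at -0.14 ± 0.06 with an unadjusted p of 0.0431. Mybpc3, which tethers myosin heads, had 5458, 4822, 5748 and 5828 CPM in the Atf3+/+FS6KD hearts and 4960.0, 5012, 4523 and 5156 CPM in the Atf3-/-FS6KD hearts. One Atf3+/+FS6KD library, replicate 2, lay among the Atf3-/-FS6KD libraries, and the log2 fold change was -0.15 ± 0.07 (SE, adjusted p = 0.512, edgeR). The nonmuscle myosin heavy chain Myh14 was at -0.15 ± 0.09. The minor myosin heavy chain Myh7b had the highest value of all 33 genes, 0.27 ± 0.16 with an adjusted p of 0.6 (edgeR), and its groups overlapped.

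Titin and the M-band genes were all 3 below 0. Ttn had 5171, 5483, 5277 and 4526 CPM in the Atf3+/+FS6KD hearts and 5392, 3583, 3665 and 4645 CPM in the Atf3-/-FS6KD hearts. Replicates 2 and 3 of Atf3-/-FS6KD were low, replicate 1 was as high as the Atf3+/+FS6KD hearts, and the log2 fold change was -0.24 ± 0.13 (SE, adjusted p = 0.566, edgeR). The myomesins, which cross-link thick filaments at the M-band, were at -0.03 (Myom1) and -0.18 (Myom2). With any 1 library left out, Myom1 lay between -0.10 and 0.04 and Myom2 between -0.24 and -0.08.

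Of the 12 Z-disc and desmin genes, 9 were below 0, against 49.8% of all genes, and 4 of them had an unadjusted p below 0.05, against 4.69% of all genes lower. Desmin (Des) had 2122, 1951, 2140.1 and 1938 CPM in the Atf3+/+FS6KD hearts and 1910.2, 1684, 1765 and 1881 CPM in the Atf3-/-FS6KD hearts. The groups did not overlap, but the gap between the nearest libraries was narrow. The log2 fold change of Des was -0.17 ± 0.06 (SE, unadjusted p = 0.0213, adjusted p = 0.423, edgeR). Des is also 1 of 13 listed smooth muscle and mural markers, of which 6 were below 0 and 7 above 0 (median 0.002). The part of those cells in the value of Des was not tested. Actn2, which cross-links thin filaments at the Z-disc, had 1912, 2097, 1961 and 2069 CPM in the Atf3+/+FS6KD hearts and 1877, 1798, 1634 and 1882 CPM in the Atf3-/-FS6KD hearts. These groups did not overlap either, and the log2 fold change was -0.16 ± 0.06 (SE, unadjusted p = 0.0280, adjusted p = 0.438, edgeR). Nebulette (Nebl), which links actin to the Z-disc, had 418, 452, 389 and 463 CPM in the Atf3+/+FS6KD hearts and 366, 371, 341 and 395 CPM in the Atf3-/-FS6KD hearts. Only Atf3-/-FS6KD replicate 4 reached the lowest Atf3+/+FS6KD library, and the log2 fold change was -0.23 ± 0.07 (SE, unadjusted p = 0.0119, adjusted p = 0.392, edgeR). Ldb3, a PDZ and LIM protein that binds alpha-actinin, was at -0.18 ± 0.08 with an unadjusted p of 0.0478. Csrp3 and Myoz2 were at 0.005 and -0.04, and Tcap at -0.26 ± 0.18 with a wide range of 890.0 to 1683 CPM in Atf3+/+FS6KD. Synpo2l was at 0.23 ± 0.14 and Flnc, Pdlim3 and Pdlim5 lay between -0.07 and -0.06. Myotilin (Myot) had the widest spread, 26.3, 29.6, 60.6 and 27.4 CPM in the Atf3+/+FS6KD hearts and 34.1, 41.6, 22.4 and 49.2 CPM in the Atf3-/-FS6KD hearts, and its log2 fold change of 0.03 ± 0.31 (SE) says little about its direction.

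The scaffold genes Fhl1, Fhl2, Nrap and Xirp1, with LIM domains or Xin repeats, lay between -0.12 and 0.001 on the log2 scale. Of the genes needed to fold myosin, Unc45b, its chaperone, had 185, 147, 162 and 161 CPM in the Atf3+/+FS6KD hearts and 154, 110.3, 134 and 144 CPM in the Atf3-/-FS6KD hearts. The groups overlapped through Atf3+/+FS6KD replicate 2, and the log2 fold change was -0.27 ± 0.11 (SE, unadjusted p = 0.0336, adjusted p = 0.459, edgeR). Between 25.9% and 29.6% of the counts of Unc45b sat on 3 further rows that carry its symbol with a number added, so its level is uncertain. Smyd1, a methyltransferase that acts on myosin assembly, was at -0.12 ± 0.07.

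The count of 8 genes with a small unadjusted p depended on single libraries. Atf3-/-FS6KD replicate 3 held the smallest share of counts in the 34 genes, 5.83%, while the other 3 held 6.55% to 6.69%. Without that library 2 genes had an unadjusted p below 0.05, the median was -0.09 and Tnnt2 was at -0.29. The number was 4 without Atf3-/-FS6KD replicate 2 and 5 without Atf3+/+FS6KD replicate 3, and 2 by library size alone or with scaling to cardiomyocyte markers. Over whole groups, the share of counts in the 34 genes was 7.01% ± 0.318 in Atf3+/+FS6KD and 6.44% ± 0.409 in Atf3-/-FS6KD (SD, n = 4 each), and a two-sided exact permutation test gave p = 0.0857, where 0.0286 is the smallest the design allows.

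**Figure D3:**
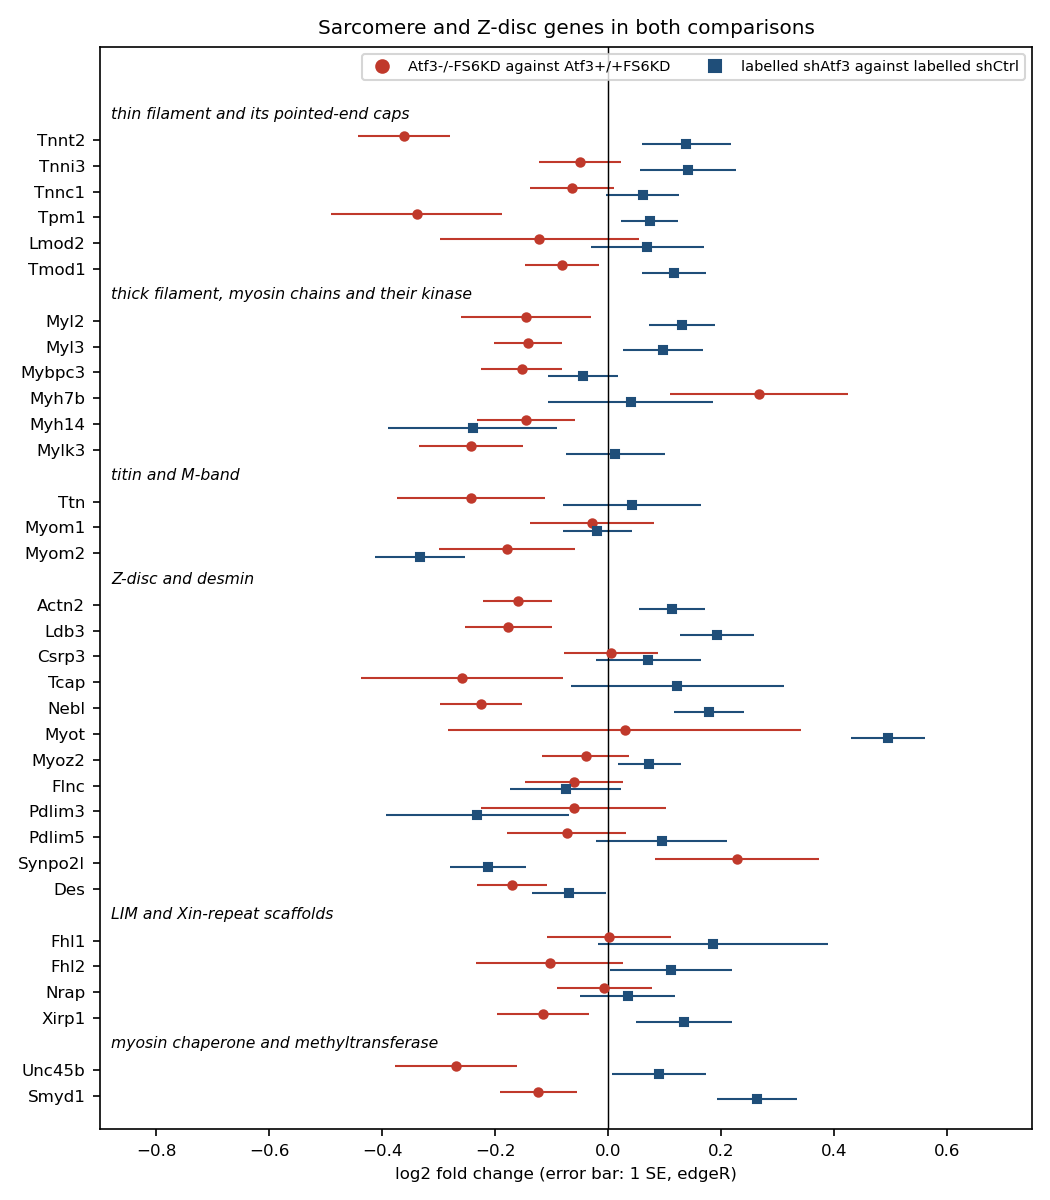
Log2 fold change (x axis) of 33 sarcomere and Z-disc genes grouped by role, with 1 SE from edgeR. Red circles compare Atf3-/-FS6KD with Atf3+/+FS6KD and blue squares compare libraries labelled shAtf3 with those labelled shCtrl. Most red circles lie below 0 (median -0.12) and most blue squares above 0 (median 0.07). With scaling to cardiomyocyte markers these medians were 0.01 and -0.00076, where those of all genes were 0.13 and -0.08. Myot stands apart in the AAV comparison at 0.50.

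In the AAV comparison the lean was the other way. Signs were opposite between the experiments in 66.7% of the 33 genes and in 63.4% of all 15109 genes tested in both, so the share was near that of all genes, and with the AAV labels crossed it would be 33.3% and 36.6%. Of 33 tested genes, 25 were above 0 in the libraries labelled shAtf3 (median 0.07), against 49.1% of 15225 genes (median -0.003). With scaling to cardiomyocyte markers 17 of 33 were below 0 (median -0.00076), where the median of all genes was -0.08. One gene, Myot, passed the test (edgeR, adjusted p below 0.05), against 0.539% of all genes. At an unadjusted p below 0.05 there were 4 higher (background 5.05%) and 2 lower (background 7.65%). The groups did not overlap in 5 higher (background 8.48%) and 2 lower (background 9.94%), and the shares of members are read against those backgrounds. DESeq2 called 3 (Myot, Myom2 and Smyd1), against 2.02% of all genes (308), and limma-trend 1 (Myot), against 0.558%. The share of counts in the 34 genes was 6.73% ± 0.311 labelled shCtrl and 6.90% ± 0.262 labelled shAtf3 (SD, n = 3 each), and the same exact permutation test gave p = 0.5, where 0.1 is the smallest the design allows.

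Myot encodes myotilin, a Z-disc protein that binds alpha-actinin and filamin. It had 46.0, 51.7 and 49.97 CPM in the libraries labelled shCtrl and 69.2, 71.7 and 67.3 CPM in those labelled shAtf3. The groups were far apart for their spread, and Myot rose 0.50 ± 0.07 on the log2 scale (SE, adjusted p = 0.0293, edgeR). The fold change stayed between 0.45 and 0.53 when any 1 library was left out, but the adjusted p was 0.0795 without shCtrl replicate 2, and 0.113, 0.159 and 0.148 without shAtf3 replicates 1, 2 and 3. With a block for the replicate number Myot did not pass the test either. In the knockout experiment Myot spanned 22.4 to 60.6 CPM, and the difference between both experiments (-0.47) had an adjusted p of 0.589 (edgeR). That difference lay between -0.65 and -0.09 when any 1 library was left out.

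Smyd1 had 784, 793 and 682 CPM in the libraries labelled shCtrl and 943, 887 and 880.2 CPM in those labelled shAtf3. All 3 libraries labelled shAtf3 were higher, and the log2 fold change was 0.26 ± 0.07 (SE, unadjusted p = 0.00467, adjusted p = 0.181, edgeR). Ldb3 had 1239, 1288 and 1168 CPM against 1509, 1328 and 1385 CPM, again with no overlap, and was at 0.19 ± 0.07 (SE, adjusted p = 0.272, edgeR). Nebl had 374, 405 and 360.0 CPM against 431, 437 and 420.4 CPM, and was at 0.18 ± 0.06 (SE, adjusted p = 0.277, edgeR). The pointed-end cap Tmod1 was the fifth gene whose groups did not overlap on the higher side, at 0.12 ± 0.06 with an adjusted p of 0.444 (edgeR).

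On the lower side, the M-band gene Myom2 had 1327, 1302 and 1559.9 CPM in the libraries labelled shCtrl and 1179, 1077 and 1067 CPM in those labelled shAtf3. All 3 libraries labelled shAtf3 were lower, and the log2 fold change was -0.33 ± 0.08 (SE, unadjusted p = 0.00233, adjusted p = 0.146, edgeR). Myom1 was at -0.02 ± 0.06, and Myom2 took 41.6% to 46.3% of the counts of both myomesins in the libraries labelled shCtrl and 35.8% to 41.2% in those labelled shAtf3. Synpo2l, an actin-bundling Z-disc protein, had 202, 191 and 208 CPM against 181, 160.4 and 178 CPM. Its groups did not overlap, and the log2 fold change was -0.21 ± 0.07 (SE, adjusted p = 0.243, edgeR).

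The abundant contractile genes lay between -0.07 and 0.14 on the log2 scale in the AAV comparison. Tnnt2 had 6283, 6486 and 7383 CPM in the libraries labelled shCtrl and 8032, 7295 and 6848 CPM in those labelled shAtf3, with overlap and a log2 fold change of 0.14 ± 0.08 (SE). Tnni3 had 3329, 3449 and 3973 CPM against 4339, 3660.0 and 3851 CPM, at 0.14 ± 0.08. Myl2 had 9474, 9265 and 10225 CPM against 11122, 10093 and 10495 CPM, at 0.13 ± 0.06. In these 3 genes shCtrl replicate 3 was the highest of its group and lay within the range labelled shAtf3. Mybpc3 had 4426, 4510.4 and 5059 CPM against 4609, 4385 and 4572 CPM and was at -0.05 ± 0.06. Ttn had 3330.4, 4204 and 4682 CPM against 3689.7, 4286 and 4604 CPM and was at 0.04 ± 0.12. Actn2 had 1842, 1798 and 1908 CPM against 1987, 1898 and 2111 CPM and was at 0.11 ± 0.06. Des had 1872, 1858 and 2119.9 CPM against 1836, 1806 and 1932 CPM and was at -0.07 ± 0.07. None of these 7 genes passed the test, with adjusted p from 0.398 to 0.923 (edgeR), and their groups overlapped. The other thin filament genes, Tnnc1, Tpm1 and Lmod2, were at 0.06 to 0.07, and the 4 scaffold genes at 0.03 to 0.19. Of the thick filament, Myl3, Myh7b and Mylk3 were at 0.10, 0.04 and 0.01, and Myh14 at -0.24 ± 0.15. Of the Z-disc, Tcap, Pdlim5, Csrp3 and Myoz2 were at 0.07 to 0.12, Flnc at -0.08 and Pdlim3, one of the least expressed members, at -0.23 ± 0.16. Unc45b was at 0.09 ± 0.08. Without shCtrl replicate 3, 12 genes had an unadjusted p below 0.05 in place of 6, and without shCtrl replicate 1, 14 genes were below 0 in place of 8.

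**Figure D4:**
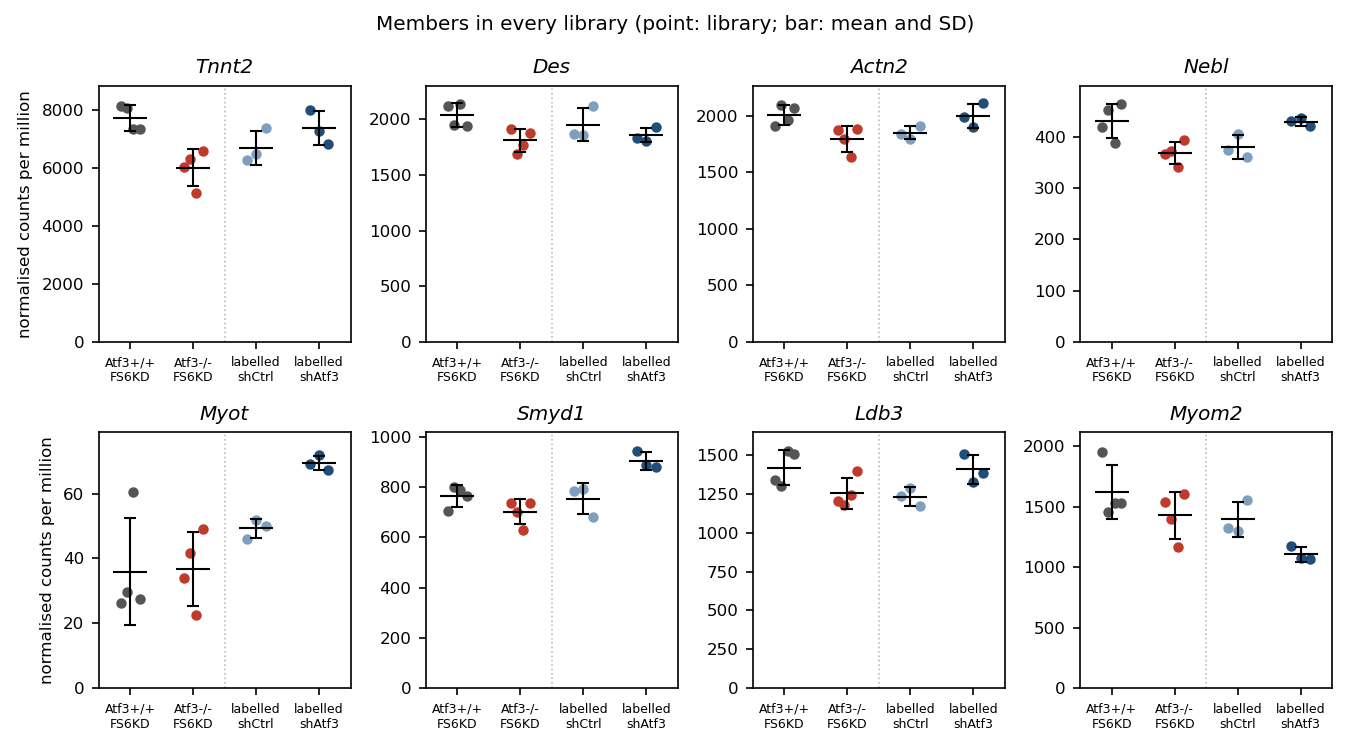
Normalised CPM (y axis, from 0) of 8 genes in every library, with the mean and SD of each group. Tnnt2, Des and Actn2 separate the Atf3-/-FS6KD from the Atf3+/+FS6KD hearts, Myot, Smyd1 and Ldb3 are higher and Myom2 lower in the libraries labelled shAtf3; the experiments were normalised separately, so levels are compared within each side of the dotted line.

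The difference between the knockout and AAV log2 fold changes was tested in 1 fit over all 14 libraries. None of the 33 genes passed (edgeR, adjusted p below 0.05), against 0.166% of 15708 genes. At an unadjusted p below 0.05 there were 9 lower (background 7.53%) and 1 higher, Synpo2l (background 9.43%). These 10 were 3 with libraries scaled to cardiomyocyte markers, and 6 by library size alone, without shCtrl replicate 1, without shCtrl replicate 2 or without Atf3-/-FS6KD replicate 2. Limma-trend called 0 of these genes, against 0.306% of all genes, and DESeq2 called 5 (Nebl, Tnnt2, Smyd1, Ldb3 and Actn2), against 4.27% of all genes (669). The smallest adjusted p were 0.0877 for Nebl, with a difference of -0.41, 0.0888 for Tnnt2 with -0.50 and 0.0916 for Smyd1 with -0.39 (edgeR). These differences rest on the AAV labels. If those were crossed, the AAV values of 0.18, 0.14 and 0.26 given above would take the opposite sign, all 3 differences would be smaller in size, and that of Smyd1 would also turn.

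Marker lists of cardiac cell types were read beside these genes. A list of 16 cardiomyocyte markers outside the sarcomere was below 0 in 16 of 16 in the knockout comparison, with a median of -0.11, and above 0 in 13 of 16 in the AAV comparison, with a median of 0.08, of which none passed the test in either. Their summed level was 51171 to 56993 CPM in Atf3+/+FS6KD against 47191 to 52099.7 CPM in the Atf3-/-FS6KD hearts, and 46975 to 50979 CPM labelled shCtrl against 50192 to 51952 CPM labelled shAtf3. A list of 12 fibroblast markers lay the other way. It was above 0 in 12 of 12 in the knockout comparison, with 0 passing by edgeR and by limma-trend, 4 by DESeq2, and a summed level of 2972 to 4031 against 3722 to 4542 CPM. In the AAV comparison it was below 0 in 12 of 12, of which 6 passed (edgeR), with a summed level of 4126 to 5239 against 3227 to 3309 CPM. The 5 with the smallest p were the collagens Col1a2 (-0.82 ± 0.11) and Col1a1 (-0.84 ± 0.11), and the matrix genes Postn (-1.14 ± 0.16), Dpt (-0.47 ± 0.07) and Fn1 (-0.78 ± 0.11), as log2 fold changes with SE and adjusted p of 0.0293 to 0.0299 (edgeR). DESeq2 called 11 of the 12. The edgeR count rested on single libraries: 0 passed without shCtrl replicate 2 or without any 1 library labelled shAtf3, 5 without shCtrl replicate 1 and 11 without shCtrl replicate 3, while all 12 stayed below 0. With a block for the replicate number 1 passed, and all 12 were again below 0. Of 10 macrophage markers, 9 were above 0 in the knockout comparison, summing to 359 to 440.5 against 387 to 566 CPM. In the AAV comparison 9 were below 0, summing to 533 to 597 against 478 to 530.4 CPM with no overlap, and none passed in either. In whole hearts fewer cardiomyocytes and less RNA per cardiomyocyte cannot be told apart. With libraries scaled to the 16 cardiomyocyte markers, a choice made after seeing the data, the median of the sarcomere and Z-disc genes was 0.01 in the knockout comparison and -0.00076 in the AAV comparison, where the median of all genes moved to 0.13 and -0.08. On that scale 15 of 33 genes were below 0 in the knockout comparison. Tnnt2 was at -0.23 with an unadjusted p of 0.0184 and an adjusted p of 0.242, and in the AAV comparison Myot was at 0.42 with an adjusted p of 0.0430 and Myom2 at -0.41 with an adjusted p of 0.0340 (edgeR). Atrial markers, 8 in all, summed to 303 CPM in shCtrl replicate 3 and 819 to 819.8 CPM in the other libraries labelled shCtrl, against 280.3 to 363 CPM in those labelled shAtf3. One of them, Dkk3, passed in the AAV comparison at -1.06 ± 0.16 (SE, adjusted p = 0.0299, edgeR). In the knockout experiment they summed to 321 CPM in Atf3-/-FS6KD replicate 4, 529 to 737 CPM in the other Atf3-/-FS6KD hearts and 593 to 687 CPM with Atf3. The median of the sarcomere and Z-disc genes was -0.15 without Atf3-/-FS6KD replicate 4 in the knockout comparison and 0.11 without shCtrl replicate 3 in the AAV comparison. The part of the fibroblast, macrophage and atrial markers in the results was not tested.

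**Figure D5:**
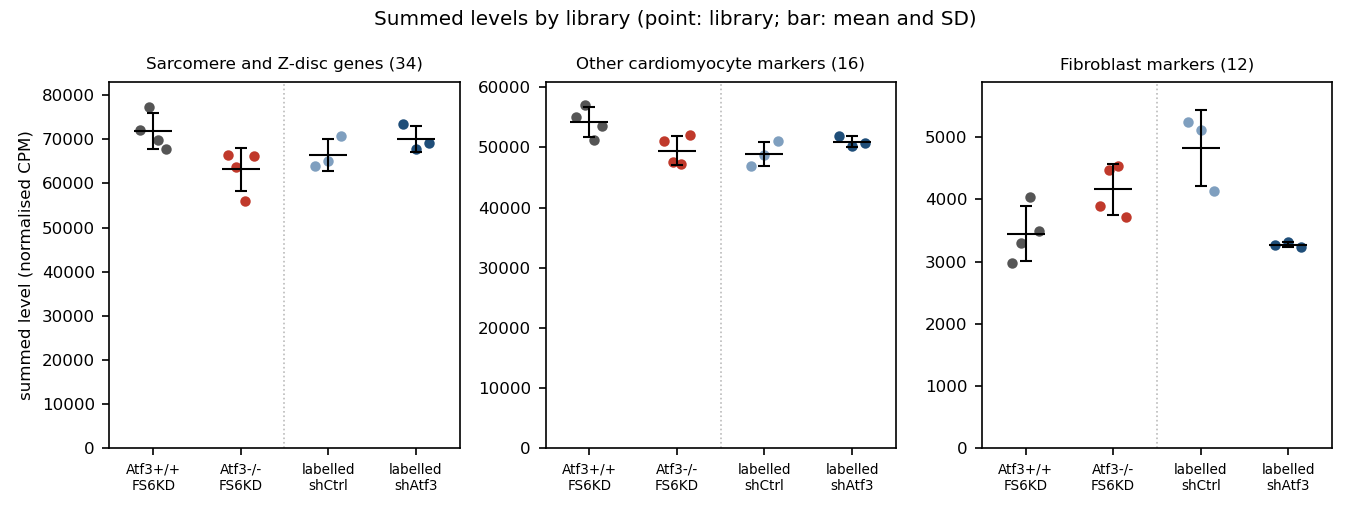
Summed level by library, in normalised CPM (y axis, from 0), of the 34 sarcomere and Z-disc genes, 16 other cardiomyocyte markers and 12 fibroblast markers, with the mean and SD of each group. The group means of the first and the second panel differ in the same direction and those of the third in the other, in both experiments, which were normalised separately.

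A further 48 genes listed for the cardiac sarcomere and Z-disc were read as well, of which Lmod1 and Synpo2 were also listed as smooth muscle and mural markers. In the knockout comparison 44 were tested and 27 were below 0, against 49.8% of all genes, with a median of -0.05. Of these 44, 0 passed (edgeR) and 3 lower and 5 higher had an unadjusted p below 0.05, against 4.69% and 5.41% of all genes. In the AAV comparison 45 were tested and 28 were above 0, against 49.1% of all genes, with a median of 0.05. Of these 45, 0 passed and 5 lower and 4 higher had an unadjusted p below 0.05, against 7.65% and 5.05% of all genes. Named after their values were seen, the actins of the thin filament lay on opposite sides in the knockout comparison: skeletal alpha-actin (Acta1) was at -1.12 ± 0.26 and cardiac alpha-actin (Actc1) at 0.47 ± 0.12, with unadjusted p of 0.00203 and 0.00341 and adjusted p of 0.290 and 0.317 (edgeR). Acta1 varied widely in Atf3+/+FS6KD, with 2329 ± 1065 CPM (SD). In the AAV comparison both lay above 0, Acta1 at 0.25 ± 0.16 and Actc1 at 0.17 ± 0.06 (SE), with adjusted p of 0.570 and 0.294 (edgeR).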

How the data were processed

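RNA of whole female hearts was sequenced with a stranded mRNA kit. The authors mapped reads to GRCm38.p6 and counted them per gene with featureCounts 2.0.0; aligner, annotation and strand setting are not given in the sources used here. The deposited tables hold estimated counts, of which 19.3% to 24.4% per library are not whole, and these were rounded. Counts on near-identical copies may be split, and total counts differed between libraries. No column was left unassigned (0). Members and lists were chosen with earlier results of these data known.

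Each comparison was fitted on all genes with more than 1 CPM in at least 1 library by edgeR 4.0.16 (quasi-likelihood test, TMM, Benjamini-Hochberg adjustment), in R 4.3.3. DESeq2 1.42.0, limma 3.58.1, other scalings, filters, a replicate block, merged copies and fits without 1 library were alternatives. Normalised CPM use TMM within each experiment. The scripts were tested on simulated data. Litters are not given, and p-values set a group difference against the spread between these samples, which edgeR estimates with information shared over genes. No pair of replicates agreed within sampling noise (chi-square per gene 6.83 to 92.3 over 18 pairs).

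Values of every library were given for genes that passed the test, for the 6 with the smallest p in each comparison, and for Tnnt2, Des, Tnni3, Myl2, Mybpc3, Ttn and Actn2; other members by a value or a range, and at most 5 genes of each other list where they passed. Exon lengths come from GENCODE vM21 and promoters from RefSeq.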

Additional observations from a re-analysis of the deposited data

Results flagged for a closer look

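Of 68 values tested in the groups of 4 hearts (33 genes and their share of counts), 6 had 1 library far from the other 3 by Dixon's criterion, where chance flags about 1 in 20. In Atf3+/+FS6KD, Tpm1 was 13672 CPM in replicate 2 against 8706 to 9491 CPM in the others. Myom2 was 1949 CPM in replicate 1 against 1459.9 to 1535 CPM, and Fhl2 was 1554 CPM in the same library against 1930.4 to 2005 CPM. Myot was 60.6 CPM in replicate 3 against 26.3 to 29.6 CPM. In Atf3-/-FS6KD, Pdlim5 was 835 CPM in replicate 4 against 1038 to 1078 CPM. The share of counts in the 34 genes was 5.83% in Atf3-/-FS6KD replicate 3 against 6.55% to 6.69% in the others. Causes were not tested.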

How the results depend on the processing

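The number of genes past the adjusted threshold was 0 in the knockout comparison and 1 with DESeq2. In the AAV comparison it was 1 (82 over all genes), but 3 with DESeq2 (308), 2 without a filter (304) and 2 with libraries scaled to the cardiomyocyte markers (103). It was 0 with the replicate block (20 over all genes), and 0 to 1 with any 1 library left out. In the difference between experiments it was 0, but 5 with DESeq2, and 0 to 1 with any 1 library left out (Nebl without Atf3+/+FS6KD replicate 3, adjusted p 0.0378, edgeR). The knockout median was -0.062 by library size alone, where all genes stood at 0.062, and 0.013 when scaled to the markers, where all genes stood at 0.13. The AAV median was 0.034 by library size alone, where all genes stood at -0.043. It was -0.00076 when scaled to the markers, where all genes stood at -0.078, and 0.051 to 0.14 with any 1 library left out. The median difference was -0.093 by library size alone, where all genes stood at 0.11, and 0.014 when scaled to the markers, where all genes stood at 0.21. Of 395 refitted log2 fold changes of the 23 named results, 388 kept their direction. The 7 that turned were Tnni3 in the knockout comparison (0.011 by library size alone, 0.085 scaled to the markers, 0.044 within replicates 3 and 4), Ttn in the AAV comparison (-0.028 scaled to the markers, and -0.084 to 0.15 with any 1 library left out, below 0 without shCtrl replicate 1 or shAtf3 replicate 3) and Mybpc3 in the AAV comparison (-0.082 to 0.017 with any 1 library left out, above 0 without shCtrl replicate 3). Genes at an unadjusted p below 0.05 in the knockout comparison were 2 by library size alone and 2 scaled to the markers, 5 within replicates 1 and 2 and 3 within replicates 3 and 4. The labels give same-numbered samples a shared number and no stated pairing, and in the knockout experiment these samples also shared a depth batch. Correlations of their deviations were -0.04 to 0.20, and 3 of 7 correlated best with their own number. The replicate block moved the adjusted p of Myot to 0.0612 (edgeR). Over all genes the calls moved from 0 to 208 with DESeq2 in the knockout comparison and from 82 to 308 in the AAV comparison, where they were 20 with the replicate block and 1 to 285 with any 1 library left out, and from 26 to 669 in the difference between experiments, where they were 0 to 168 with any 1 library left out. The causes of these changes were not tested.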
